A study of Solanum lycopersicum with 12 samples.

Results

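Phosphate and ammonium acquisition is represented here by 5 tomato (Solanum lycopersicum) genes, the phosphate transporters PT1 and PT2, the phosphate-starvation transcript TPSI1, the acid phosphatase APS1 and the ammonium transporter AMT1-2. They were chosen by symbol in the array's gene table. Each has 1 probe set, so 5 of the 10038 probe sets tested, and 5 of the 801 genes named on the array, are described. In all 5 cases the gene record in a current tomato gene table carries the same symbol, with the synonyms LePT1, LePT2, LeAMT1;2 and Aps-1(1) for 4 of them, and lists TPSI1 as a long non-coding RNA and the others as protein-coding. The samples were 12 arrays in 4 groups of 3. By their titles these were roots without cadmium (Cd), roots with Cd, leaves without Cd and leaves with Cd. For the leaf Cd group, title and source field contradict each other, the source field calling these 3 samples untreated, so Cd in leaf rests on the titles alone. Dose, duration, plant age, cultivar and phosphate or nitrogen supply are not given in the sources used here, nor is it said whether the 3 arrays of a group came from separate plants. P-values therefore measure the spread between these arrays, which may be technical.

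Plants take up phosphate as an anion through proton-coupled transporters of the plasma membrane. When phosphate is scarce they raise those transporters, secrete or mobilise acid phosphatases that free phosphate from organic esters, and accumulate short transcripts of the family to which TPSI1 belongs. In Arabidopsis thaliana the related IPS1 RNA binds a microRNA of the phosphate-starvation pathway and so protects that microRNA's target. Ammonium enters root cells through AMT1 transporters and is built into glutamine by glutamine synthetase.

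Values are log2 expression as deposited, each probe set on its own scale, so levels are compared between groups and never between genes. Differences are Cd minus control in log2 units with the standard error (SE) of the fit. A probe set was called when its limma p-value, adjusted over all 10038 probe sets by the Benjamini-Hochberg method, was under 0.05. Background on each array was the highest of 23 negative control probe sets, between 2.69 and 3.57. PT1, TPSI1, APS1 and AMT1-2 lay above it on all 12 arrays, and PT2 on all 6 root arrays and on 0 of 6 leaf arrays. Arrays of a group correlated at 0.960 to 0.994, lowest among the leaf Cd arrays. There leaf Cd 3 had the lowest array quality weight, 0.155, against 0.518 to 8.12 on the other 11 arrays, and the main leaf results of the 5 genes that move without it are given both ways. Of 6 photosynthesis transcripts that serve as markers of green tissue, all 6 were lower in root Cd than in root control and 1, CAB4, was called. Of all probe sets 1.96% were called lower in root. The CAB4 call was lost with the replicate block (adjusted p = 0.0670), with the 6 root arrays fitted alone (0.116) and without root control 1 or 3 or root Cd 1 or 3 (up to 0.169). The 6 markers were also summed on the linear scale, where the brightest weigh most. The log2 of that sum was 13.26 to 14.48 in root control and 12.25 to 13.11 in root Cd. In leaf it was 14.66 to 14.80 in control and 14.21 to 14.53 with Cd. None of the 6 was at background in any group. In leaf all 6 were lower with Cd, by differences from -1.45 (CAB5) to -0.11 (PSBO), and 0 were called (adjusted p = 0.322 to 0.861 by limma). There 1.54% of all probe sets were called lower. These lower green marker levels run with the Cd groups in both organs, and their part in the differences below was not tested. Of 3 root markers, FER and ext1 were at background on all leaf control arrays, whereas FRO1 was higher in leaf. In root, FER and ext1 were higher with Cd by 0.79 and 2.61 (adjusted p = 0.0300 and 0.0142 by limma). Each lost its call in 5 of 13 alternative fits (adjusted p up to 0.134 and 0.0725). FRO1 differed by -0.39 (adjusted p = 0.884). The log2 of the linear sum of the 3 was 10.20 to 10.45 in root control and 11.04 to 11.32 in root Cd. Most of that sum was FER, with means of 10.19 and 10.98. The part of this rise in the differences below was not tested either. The tissues are bulk, so fewer cells of a type and less RNA per cell cannot be told apart.

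**Figure D1:**
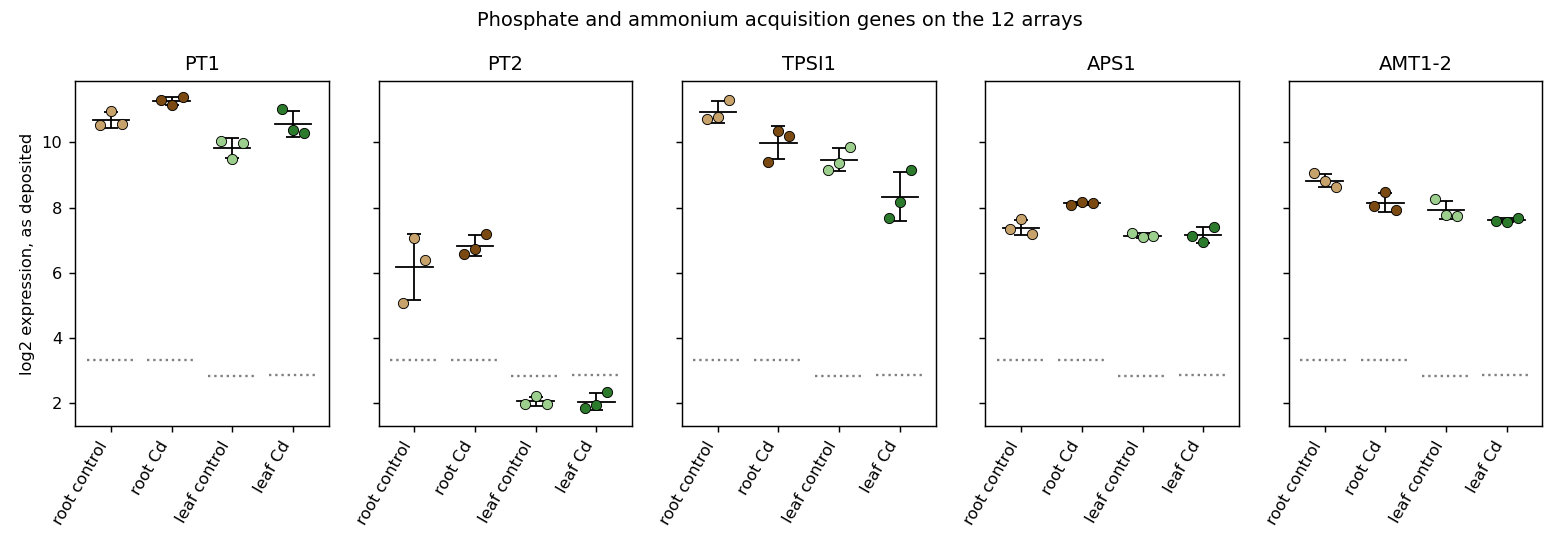
Log2 expression as deposited (vertical axis) of the 5 genes on each of the 12 arrays, by group (horizontal axis). Points are arrays in the order of their numbers, horizontal bars and error bars are the mean and SD of 3 arrays, and dotted lines are the mean background of the group. PT2 lies below background on all 6 leaf arrays, and the 3 APS1 values of root Cd lie close together above all other APS1 values.

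PT1 encodes a high-affinity phosphate transporter that tomato uses in roots and in leaves. In root control it measured 10.54, 10.97 and 10.55 on arrays 1 to 3, and in root Cd 11.31, 11.14 and 11.38. In leaf control it measured 10.04, 9.49 and 9.98, and in leaf Cd 11.02, 10.38 and 10.30. In both organs every Cd array lay above every control array. The mean went from 10.69 ± 0.25 to 11.28 ± 0.12 in root (SD, n = 3), a difference of 0.59 ± 0.22 (SE; 1.50-fold) that was not called (adjusted p = 0.190 by limma). In leaf it went from 9.83 ± 0.30 to 10.57 ± 0.40, a difference of 0.73 ± 0.22 (1.66-fold), not called either (adjusted p = 0.0975). Without leaf Cd 3 the leaf difference was 0.87 (adjusted p = 0.0644). The responses of the organs differed by -0.14, root minus leaf, with a 95% confidence interval of -0.83 to 0.54 (adjusted p = 0.858), and by -0.28 without leaf Cd 3 (adjusted p = 0.678).

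PT2 is the second high-affinity phosphate transporter, known in tomato for expression in phosphate-starved roots. In root control its 3 arrays measured 5.07, 7.08 and 6.40. In root Cd they measured 6.57, 6.73 and 7.20. The groups overlapped, since root control 2 lay above 2 of the 3 Cd arrays, and root control 1 stood low. The difference of 0.65 ± 0.40 was not called (adjusted p = 0.478), and it was 0.09 without root control 1 (adjusted p = 0.936) and 1.096 without root control 2 (adjusted p = 0.134). Leaf values ran from 1.98 to 2.21 in controls and from 1.86 to 2.34 with Cd. All 6 were below background, so nothing is read from PT2 in leaf.

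TPSI1, the phosphate-starvation transcript, ran the opposite way to PT1. In root control it measured 10.70, 10.79 and 11.31, and in root Cd 9.41, 10.36 and 10.19. In leaf control it measured 9.16, 9.37 and 9.86, and in leaf Cd 7.67, 8.17 and 9.17. All root Cd arrays lay below all root controls, whereas in leaf the third Cd array reached the lowest control. The root mean was 10.93 ± 0.33 in control and 9.99 ± 0.51 with Cd, a difference of -0.95 ± 0.37 (1.93-fold lower) that was not called (adjusted p = 0.212). The leaf mean was 9.47 ± 0.36 in control and 8.34 ± 0.76 with Cd, a difference of -1.13 ± 0.37 (2.19-fold lower, adjusted p = 0.128). Deviations of leaf arrays of equal number correlated at 0.12 to 0.42, but the titles state no pairing. A fit with that number as a replicate block called the same leaf difference (adjusted p = 0.0433). It was called also without leaf Cd 3, at -1.54 (adjusted p = 0.0260). The organs' responses differed by 0.18, with an interval of -0.98 to 1.35 (adjusted p = 0.897), and by 0.60 without leaf Cd 3 (adjusted p = 0.494).

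APS1 encodes acid phosphatase-1, an enzyme long used in tomato as a marker linked to the nematode resistance gene Mi. It was the one gene of the 5 called within an organ in the reported fit. In alternative fits TPSI1 in leaf was called under the replicate block, with array weights (adjusted p = 0.0481 by limma) and without leaf Cd 3. Array weights called all 5 genes in root. In root control APS1 measured 7.33, 7.64 and 7.18, and in root Cd 8.08, 8.17 and 8.13. All Cd arrays lay above all controls and within 0.09 of each other. APS1 rose from 7.39 ± 0.23 to 8.13 ± 0.05, by 0.74 ± 0.15 (1.68-fold, adjusted p = 0.0283, higher in 3 of 3 Cd arrays than in any control). By p-value it ranked 174 of the 10038 probe sets, and 9.35% of them had a larger difference in either direction. The call was lost without root control 1 (adjusted p = 0.102), root control 3 (0.112), root Cd 1 (0.0946) or root Cd 2 (0.0851), with the difference between 0.64 and 0.77. It was lost also when the 6 root arrays were fitted alone (adjusted p = 0.0577).

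In leaf, APS1 measured 7.21, 7.09 and 7.12 in controls and 7.11, 6.93 and 7.41 with Cd. The groups overlapped and the means were 7.14 ± 0.06 and 7.15 ± 0.24, a difference of 0.01 with an interval of -0.32 to 0.34 (adjusted p = 0.983). Without leaf Cd 3 it was -0.12 (adjusted p = 0.674). The test of the difference between organs gave 0.73 ± 0.21 (interval 0.26 to 1.21) and did not pass (adjusted p = 0.146), nor did it at 0.86 without leaf Cd 3 (adjusted p = 0.0547). APS1 is thus not shown to respond in root alone.

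AMT1-2 encodes a membrane transporter for ammonium. In root control it measured 9.05, 8.80 and 8.63, and in root Cd 8.06, 8.49 and 7.91. In leaf control it measured 8.26, 7.77 and 7.74, and in leaf Cd 7.59, 7.55 and 7.67. In both organs every Cd array lay below every control array. The root mean went from 8.83 ± 0.21 to 8.15 ± 0.30, a difference of -0.67 ± 0.19 (1.60-fold lower, adjusted p = 0.0838) that was not called. In leaf the difference was -0.32 ± 0.19, from 7.92 ± 0.29 to 7.60 ± 0.06 (1.25-fold lower, adjusted p = 0.399), and -0.15 without leaf control 1 (adjusted p = 0.745). The organs' responses differed by -0.35, with an interval of -0.94 to 0.23 (adjusted p = 0.549).

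Counted together, 1 of the 5 genes was called in root, where 3.03% of all probe sets were, and it was called upward, as 1.07% were. In leaf 0 of 5 were called by limma, 2 of 5 at an unadjusted p under 0.05 (PT1 and TPSI1), against 3.78% and 19.2% of all probe sets. With the replicate block in leaf, a pairing that no title states, 1 of 5 was called (TPSI1, adjusted p = 0.0433), against 3.75% of all probe sets. At an unadjusted p under 0.05, 4 of 5 passed in root, against 17.4%. Groups did not overlap for 4 of 5 genes in root (PT1 and APS1 higher, TPSI1 and AMT1-2 lower), against 27.4% of all probe sets, 13.5% higher and 13.9% lower. In leaf they did not overlap for 2 of 5 (PT1 higher, AMT1-2 lower), against 21.7% of all probe sets, 13.8% higher and 7.86% lower. Groups separated upward in both organs, as for PT1, in 2.17% of probe sets, and downward in both, as for AMT1-2, in 2.63%. For the difference between the organs' responses 0 of 5 were called by limma and 1 of 5 (APS1) had an unadjusted p under 0.05, against 0.757% and 15.3% of probe sets. The median difference of the 5 genes in root was 0.59, beside 0.02 over all probe sets. In leaf the median of the 4 genes above background was -0.16, beside 0.02 over the 8775 probe sets above background on every array of at least 1 leaf group. The members were chosen with earlier results of these data known, so these shares describe them and test nothing.

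**Figure D2:**
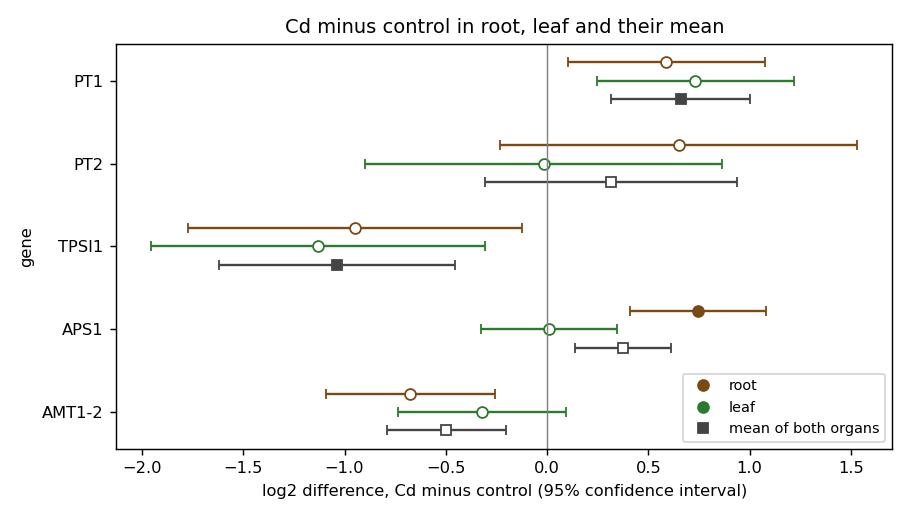
Log2 difference, Cd minus control (horizontal axis), with 95% confidence intervals for the 5 genes (vertical axis) in root, in leaf and as the mean of both organs. Filled symbols have an adjusted p under 0.05. PT1 lies above 0 and TPSI1 below 0 in both organs, APS1 lies above 0 in root and at 0 in leaf, and the leaf values of PT2 are all below background, so its leaf and mean estimates carry no information.

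Because PT1, TPSI1 and AMT1-2 kept their sign across organs, the mean of the root and leaf differences was fitted as an added contrast, chosen after the values were seen. PT1 rose by 0.66 ± 0.16 on this mean (1.58-fold, interval 0.32 to 1.004, adjusted p = 0.0335), and each Cd array exceeded all controls of its organ. TPSI1 fell by 1.04 on the log2 scale (SE 0.26, 2.05-fold lower, adjusted p = 0.0435), with 5 of 6 Cd arrays below all controls of their organ. AMT1-2 stood at -0.50 ± 0.13 (adjusted p = 0.0526) and APS1 at 0.38 ± 0.11 (adjusted p = 0.0640), neither called. These 2 of 5 calls compare with 6.12% of all probe sets, 2.88% called higher and 3.24% lower. Both differences have the same arrays as the comparisons within organs and are no separate evidence. The calls rested on single arrays. For PT1 the call ended on removal of root control 1 or 3, root Cd 1 or 3, leaf control 2 or 3, or leaf Cd 1 (adjusted p up to 0.0842). TPSI1 kept its call only without leaf Cd 3 (adjusted p = 0.00984) and lost it without any other single array (adjusted p up to 0.107). Without 1 array, the difference stayed between 0.55 and 0.73 for PT1 and between -1.25 and -0.87 for TPSI1.

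**Figure D3:**
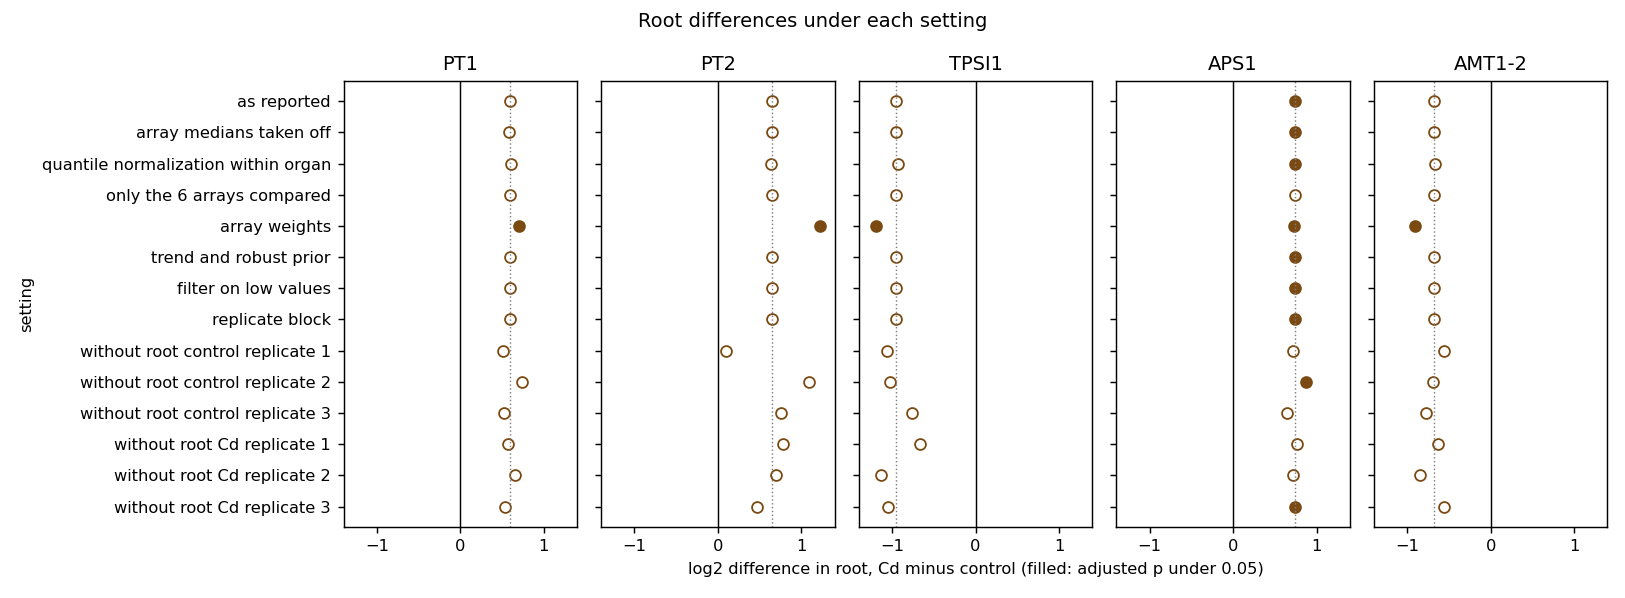
Log2 difference in root, Cd minus control (horizontal axis), for each of the 5 genes under the reported setting and each alternative (vertical axis). Filled points have an adjusted p under 0.05, solid lines mark 0 and dotted lines the reported value. All 5 genes keep their sign in every setting shown, PT2 moves most, from 0.09 without root control 1 to 1.22 with array weights, and the APS1 estimate moves between 0.64 and 0.87.

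Levels in root and leaf were compared less each array's median, because array medians were 7.46 to 7.50 in root and 6.85 to 6.89 in leaf and no label explains the gap. PT2 was the one gene of the 5 called between organs both without and with Cd on this scale. The fit, which used the leaf values below background, gave 3.53 without Cd (adjusted p = 5.02e-05 by limma) and 4.17 with Cd (adjusted p = 1.39e-05). On group means PT2 was at least 6.74-fold higher in root control than in leaf control, and at least 10.3-fold higher in root Cd than in leaf Cd. Both folds are bounds computed from the root means and the leaf background and were not themselves tested. As deposited they were at least 10.1-fold and at least 15.8-fold. They leave out the spread between arrays, and root control ran from 5.07 to 7.08, so a single array can lie below its bound. The PT2 call held in both comparisons under each alternative run, including without any single array.

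TPSI1 differed, root minus leaf, by 0.88 ± 0.37 without Cd (adjusted p = 0.0801, not called) and was higher in root by 1.03 ± 0.37 with Cd (2.05-fold, adjusted p = 0.0421). As deposited both were called, at 1.47 and 1.65 (adjusted p = 0.00504 and 0.00241). The second call was lost without root Cd 2, root Cd 3, leaf Cd 1 or leaf Cd 2 (adjusted p up to 0.146, difference down to 0.69). APS1 was below leaf in root control (-0.35 ± 0.15, adjusted p = 0.0878) and above it with Cd (0.36 ± 0.15, adjusted p = 0.0747), neither called. As deposited, the difference was 0.24 without Cd (adjusted p = 0.169), with the sign turned, and 0.98 with Cd, which was called (adjusted p = 0.000252). Without leaf Cd 3 the difference with Cd, less array medians, was 0.50 and was called (adjusted p = 0.0147). PT1 differed between organs by 0.26 without and 0.09 with Cd (adjusted p = 0.345 and 0.744), and AMT1-2 by 0.31 and -0.07 (adjusted p = 0.214 and 0.801). As deposited all 4 of these were called. PT1 then differed by 0.85 and 0.71 (adjusted p = 0.00543 and 0.0133), and AMT1-2 by 0.90 and 0.55 (adjusted p = 0.00155 and 0.0215), the last with the sign turned. In all, 1 of 5 genes was called without Cd and 2 of 5 with Cd, where 43.3% and 45.9% of all probe sets were. As deposited 4 and 5 of the 5 were called, where 70.9% and 73.2% of all probe sets were.

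**Figure D4:**
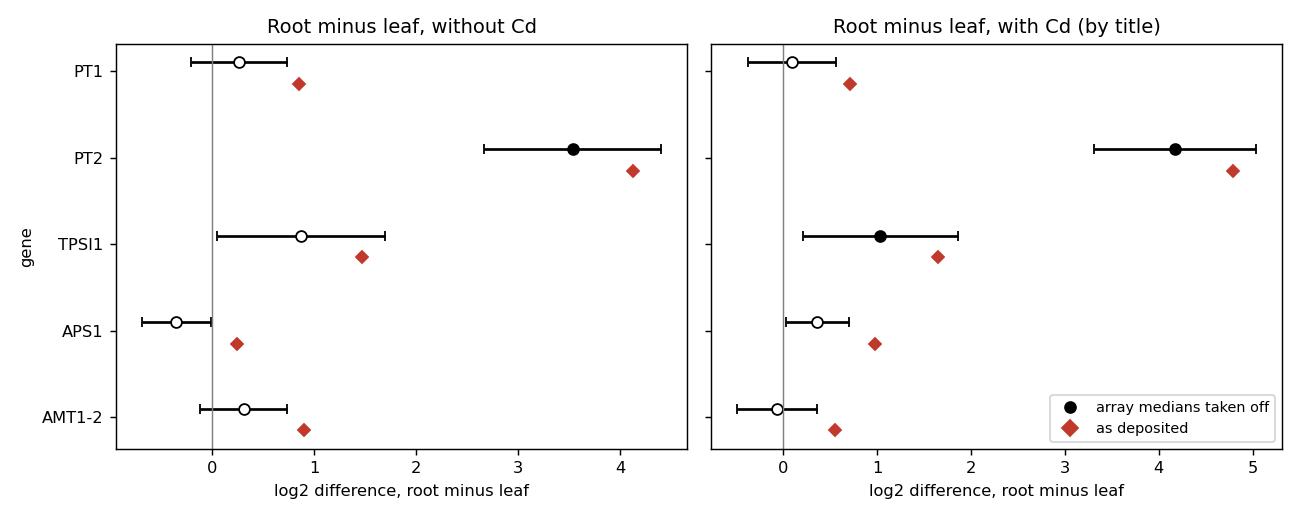
Log2 difference, root minus leaf (horizontal axis), for the 5 genes (vertical axis) without Cd and with Cd. Circles with 95% confidence intervals have array medians taken off and are filled where the adjusted p is under 0.05, and diamonds are the values as deposited. PT2 stands far to the right of the other genes in both panels, and the APS1 circle without Cd and the AMT1-2 circle with Cd lie below 0 while their diamonds lie above it.

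Ordered by level less the array median, PT1 ran from root Cd (3.80 ± 0.12) and leaf Cd (3.70 ± 0.38) through root control (3.21 ± 0.24) to leaf control (2.95 ± 0.30), and each neighbour in this order overlapped the next. TPSI1 ran from root control (3.46 ± 0.32) through leaf control (2.58 ± 0.35) and root Cd (2.50 ± 0.49) to leaf Cd (1.47 ± 0.78). Only its first step had groups that did not overlap. For APS1 root Cd (0.65 ± 0.04) was above leaf Cd (0.29 ± 0.25) and leaf control (0.26 ± 0.06), which overlapped, and these above root control (-0.09 ± 0.23), whose highest array (0.15) overlapped the leaf Cd arrays but not the leaf controls. AMT1-2 ran from root control (1.35 ± 0.22) through leaf control (1.04 ± 0.29) and leaf Cd (0.74 ± 0.07) to root Cd (0.67 ± 0.31). Of these steps the one from leaf control to leaf Cd had groups that did not overlap. As deposited, PT1 in root control stood above leaf Cd (10.69 against 10.57, overlapping), so that order too follows the scaling.

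Other genes of phosphate starvation were taken from a list of 25 symbols, of which 9 were measured, the 4 phosphate genes above and 5 others. Of the 5 others, 1 fell in root, 0 rose, and 4 did not pass, where 1.96% of all probe sets fell and 1.07% rose. The median difference in root of the 4 of them above background, which leaves out RNALE, was 0.13, against 0.02 over all probe sets. In leaf 0 passed by limma, where 3.78% of all probe sets did. The leaf median of all 5 was -0.69, against 0.02 over all probe sets. The gene that fell in root was PPCK2, a phosphoenolpyruvate carboxylase kinase, an enzyme that adjusts organic acid synthesis. It ran from 3.78 to 5.24 in root control and was at background on all 3 root Cd arrays, at least 2.28-fold lower (adjusted p = 0.0447). It lost that call without any single root array but root control 2 (adjusted p up to 0.141), and with the 6 root arrays fitted alone (0.0936). In leaf PPCK2 differed by -1.08 (adjusted p = 0.0955), from 4.04 ± 0.42 to 2.96 ± 0.23. The leaf groups did not overlap, as in 7.86% of all probe sets downward. The leaf Cd values, 2.69 to 3.10, lay just above the background of those arrays (2.69 to 3.01), so the size of this difference is uncertain. PPCK2 and TPSI1 thus had negative differences in both organs. Its relative PPCK1 differed by -0.36 in root and 0.18 in leaf (adjusted p = 0.675 and 0.825).

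RNALE and rnalx encode the S-like ribonucleases LE and LX, and RNase LE is known for induction in phosphate-starved tomato cells. RNALE was at or near background in root (above it on 1 of 3 control and 2 of 3 Cd arrays). In leaf it ran from 4.61 to 7.998 in controls and from 5.03 to 6.72 with Cd (difference -0.09, adjusted p = 0.967). The rnalx values spread widely within each group, and its differences of 0.62 in root and -1.20 in leaf did not pass (adjusted p = 0.857 and 0.592). PAP1, matched by symbol alone, differed by 0.74 in root (adjusted p = 0.130) and -0.69 in leaf (adjusted p = 0.148). The test of that difference between organs did not pass either (adjusted p = 0.0806). In root PAP1 was called in 2 of 13 alternative fits, the replicate block (adjusted p = 0.0474) and array weights (0.00618). Root arrays of equal number are not shown to be paired. PAP1 has 2 probe sets, of which the brighter is given.

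Of the 27 nitrogen symbols searched, 3 genes besides AMT1-2 were measured. None of the 3 passed in root or leaf by limma, where 3.03% and 3.78% of all probe sets did. GS2, the plastid glutamine synthetase, differed by -0.72 in root (11.13 ± 0.36 and 10.41 ± 0.33, adjusted p = 0.103) and by -0.02 in leaf. GS2 is itself a gene of green tissue and was lower in root than in leaf, as the green markers were. Glutamate dehydrogenase, gdh1, went from 10.92 ± 0.29 to 11.83 ± 0.24 in root, a difference of 0.91 (adjusted p = 0.171) with groups that did not overlap. It differed by 0.47 in leaf (adjusted p = 0.482), by 0.019 without leaf Cd 1 and by 0.79 without leaf Cd 2. For gts1, the third, the differences were -0.33 and -0.40 (adjusted p = 0.751 and 0.607). Without 1 array these ran from -0.48 to -0.054 in root and from -0.85 to -0.12 in leaf. Plasma membrane proton ATPases supply the gradient that phosphate and ammonium uptake draw on. Of these LHA1 (-0.19 in root, adjusted p = 0.710) and LHA2 (-0.31, adjusted p = 0.395) were measured, and neither passed in either organ.

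Among 9 genes for the handling of other ions, 3 rose in root, 0 fell and 6 did not pass, where 1.07% of all probe sets rose and 1.96% fell. The median difference was 0.50, against 0.02 over all probe sets. These were the sulfate transporters ST1 and ST2 and the metal transporter NRAMP1. Their root values rose by 0.93, 2.21 and 1.60 log2 units (adjusted p = 0.0159, 0.0141 and 0.0120), beside 0.59 and 0.65 for the phosphate transporters. ST2 was near background in root control (mean 3.38, above background on 2 of 3 arrays), so the size of its rise is uncertain. The ST1 and NRAMP1 probe sets were at background on all 6 leaf arrays, as PT2 was. In leaf 2 of the 9 rose, the metal transporter NRAMP3 (1.22, adjusted p = 0.00114) and the potassium channel LKT1 (1.08, adjusted p = 0.0342, and 0.0673 under the replicate block), and 0 fell, where 2.23% of all probe sets rose and 1.54% fell. Without 1 root array the calls of ST1, ST2 and NRAMP1 were lost in some cases (ST1 without root control 1 or root Cd 1, ST2 without root Cd 2, NRAMP1 without root Cd 1, adjusted p up to 0.0747). With the 6 root arrays fitted alone ST1 and NRAMP1 lost theirs (adjusted p = 0.0653 and 0.0605). LKT1 kept its call without leaf Cd 3 and lost it without any other single leaf array (adjusted p up to 0.148) and with the 6 leaf arrays fitted alone (0.125).

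**Figure D5:**
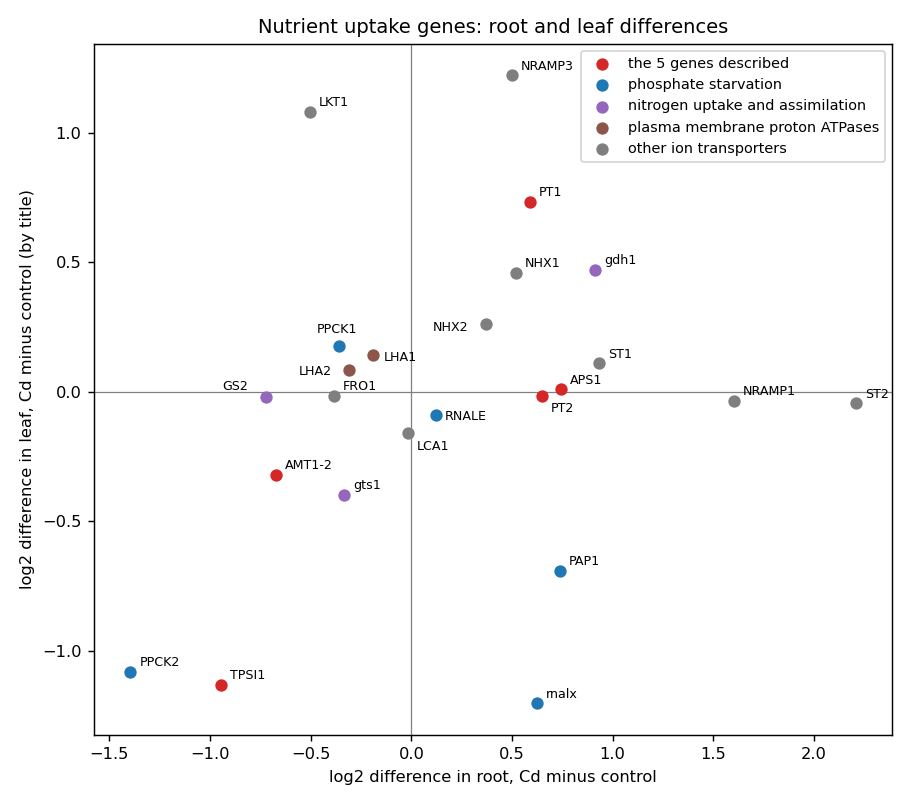
Log2 difference, Cd minus control, in root (horizontal axis) and in leaf (vertical axis) for each measured gene of the nutrient lists, 1 point a gene. PT1 and TPSI1 lie on opposite sides of 0 on both axes, and TPSI1 and PPCK2 share the lower left corner. PPCK2 is at background in root Cd and just above it in leaf Cd, so its distance from 0 is uncertain on both axes. RNALE is at or near background in root, so little can be read from its horizontal position. PT2, ST1 and NRAMP1 are at background in leaf, so their vertical position carries no information.

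The named genes whose profile over the 12 arrays came nearest to each of the 5 were found by the mean absolute difference between profiles, each less array medians and less its own mean. For PT1 the nearest of 800 genes was ProT1, a proline transporter, at 0.13 log2 units, followed by LOC543517 (synonym LeARF1) at 0.16 and NPR1 at 0.20, against a median of 0.52 over all 800. ProT1, like PT1, was lowest in leaf control (-0.38 from its mean), and it stood at 0.26 in root Cd and 0.27 in leaf Cd, where PT1 stood at 0.38 and 0.29. For APS1 the nearest were UCP (0.14), LOC543863 (0.16) and BI-1 (0.17), beside a mean absolute deviation of 0.24 for APS1 itself. For PT2 LOC543597, LOC543703 and MYB all lay at 0.38, against its own deviation of 1.93. For TPSI1 they were IAA17 (0.39), krp2 (0.43) and t19-8 (0.44), beside its own deviation of 0.65. AMT1-2 was nearest to RPL37 (0.22), GA3ox1 (0.22) and rem-2 (0.22), beside its own deviation of 0.28.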

How the data were processed

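Total RNA of 12 root and leaf samples was hybridised to single-channel Affymetrix tomato arrays. Per the labels, RNA was purified on RNeasy columns and biotinylated cRNA was made from it. The authors deposited 1 log2 expression value for each probe set and array. MAS5 and RMA are listed in the submitters' processing notes, with neither role nor version, and further steps are not given in the sources used here. Values were used as deposited, except that array medians were taken off for root against leaf. Of 10209 probe sets, 171 controls were left out. Groups follow the titles. Group means were fitted over all 12 arrays with limma 3.58.1 in R 4.3.3 (two-sided, Benjamini-Hochberg over 10038 probe sets, threshold 0.05, residual degrees of freedom 8, prior 2.84), and the fit was tested on simulated data. Tables and plots used Python 3.11.15, pandas 2.3.3 and matplotlib 3.10.9.

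The members, lists, contrasts and alternatives were chosen with earlier results of these data known. The text names all members, the other genes of the phosphate and nitrogen lists and both ATPases, the ion transporters past the threshold, and the 3 nearest profiles of each member. Of several probe sets of a gene, the one with the highest mean was used. Names come from the array's annotation, matched by gene record to a RefSeq gene table of assembly SLM_r2.1. Deviations of arrays of equal number from their group means correlated across control and Cd at 0.35, 0.42 and 0.12 in leaf. In root these correlations were 0.00, -0.26 and 0.06. Arrays of unequal number were not compared and the titles state no pairing. Whether leaf arrays are paired is therefore open, and the replicate block is given as an alternative. Precision is limited by 3 arrays per group. Alternatives were other scaling, fitting only the arrays compared, array weights, another variance prior, a filter on low values (9260 probe sets above background on at least 3 arrays), the replicate block and leaving out each array.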

Additional observations from a re-analysis of the deposited data

How the results depend on the processing

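Array weights gave root control 1 and root Cd 1 most of the say (8.12 and 5.60) and called 37.3% of all probe sets in root. The 5 genes then gave 5 calls in root (1 as reported), 1 in leaf (0), 1 for the difference of responses (0, APS1), 4 for the mean response (2) and 4 and 3 for root against leaf without and with Cd (1 and 2). The weights called 5.45% of all probe sets in leaf, 7.02% for the difference of responses and 20.8% for the mean. For root against leaf they called 64.6% without and 49.7% with Cd. Fitting only the arrays compared gave 0 calls in root, 2 for root against leaf without Cd and 1 with Cd (2 as reported). Of all probe sets 2.01%, 51.4% and 33.9% were then called. As deposited, root against leaf gave 4 calls without and 5 with Cd, where 70.9% and 73.2% of all probe sets were called. The replicate block gave 1 in leaf (TPSI1) and 2 for root against leaf without Cd, where TPSI1 joined PT2. The numbers are not shown to pair the arrays in either case. The block changed the count in no other comparison. With the block 3.75% of all probe sets were called in leaf and 37.0% for root against leaf without Cd. Leaving out 1 array gave 0 to 1 calls in root, 0 to 1 in leaf, 0 for the difference of responses, 0 to 2 for the mean, and 1 to 2 and 1 to 3 for root against leaf without and with Cd. Of all probe sets it called 0.847% to 4.07% in root, 1.27% to 5.87% in leaf and 0.259% to 1.59% for the difference of responses. It called 2.84% to 9.12% for the mean, and 33.5% to 39.2% and 36.5% to 45.5% for root against leaf. The other scalings, the variance prior and the filter on low values changed none of these counts.

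The following directions turned. In leaf, PT2 (below background) was 0.0045 with medians taken off and -0.16 to 0.075 without 1 array, and APS1 was -0.075 with array weights and -0.12 to 0.12 without 1 array. The difference of responses ran from -0.28 to 0.086 for PT1 and -0.15 to 0.60 for TPSI1 without 1 array. Root minus leaf as deposited was 0.24 for APS1 without Cd and 0.55 for AMT1-2 with Cd, and with Cd it ran from -0.24 to 0.066 for AMT1-2 and -0.033 to 0.31 for PT1 without 1 array. Among list genes with array weights, root values were -0.085 for RNALE and 0.073 for gts1, and leaf values 0.032 for GS2 and 0.13 for RNALE. With medians taken off GS2 was 0.00097 in leaf. Without 1 array, RNALE ran from -0.013 to 0.21 and rnalx from -0.14 to 1.15 in root, and in leaf GS2 from -0.16 to 0.059, RNALE from -0.85 to 0.85 and PPCK1 from -0.040 to 0.44. The cause was not tested. Each member has 1 probe set, so averaging probe sets was not run.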
